A study of Canis lupus familiaris with 7 samples.

Results

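HOX genes and 8 other families of homeobox genes were examined in canine osteosarcomas with and without a deletion of DLG2, a gene for a membrane scaffold protein. The members were the non-control probes of an Agilent canine expression array whose gene symbol was HOXA, HOXB, HOXC or HOXD with digits, or was a numbered member of the DLX, MSX, PITX, PRRX, MEIS, PBX or LHX families or of the family of SIX2. This gave 53 probes for 46 genes among 43603 probes, of which 24 probes (21 genes) were HOX and 29 probes (25 genes) belonged to the other families. Within these families probes were taken by symbol alone, whatever their level. The families themselves were chosen with earlier results of these data known. The RefSeq gene table lists 38 canine HOX genes, and 21 of them had a member probe (9 of 11 in the A cluster, 5 of 10 in B, 3 of 9 in C and 4 of 8 in D).

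Each of the 7 arrays held RNA from the primary osteosarcoma, a malignant bone tumour, of a different dog according to the labels, taken at veterinary clinics. The DLG2 deleted tumours came from a German Shepherd/Collie cross of 8 years (MC, deleted tumour 1), a Rottweiler cross of 9 years (FS, deleted tumour 2), a Greyhound of 6 years (MC, deleted tumour 3) and a Great Pyrenees of 7 years (FS, deleted tumour 4), and the DLG2 wild type tumours came from a Boxer of 12 years (FS, wild-type tumour 1), a Labrador Retriever cross of 10 years (FS, wild-type tumour 2) and a Bull Mastiff of 8 years (MC, wild-type tumour 3), with sex codes as the labels give them. DLG2 status was set by array comparative genomic hybridization. These were spontaneous tumours without matched bone, each from 1 dog, and both the extent of the deletion and other genomic changes may vary between dogs. The limb or bone of origin is not given in the sources used here, so the levels below could not be set against a known site.

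HOX proteins are transcription factors that bind DNA through a homeodomain, and their genes lie in 4 clusters in mammals. Within a cluster, genes at the 3' end (low numbers) are switched on earlier and nearer the head, and genes at the 5' end (high numbers) are used in the posterior trunk and in the distal limb. Adult mesenchymal cells, osteoblasts among them, keep much of the HOX pattern of the place where they arose, which is why HOX levels are read as positional identity. The TALE proteins MEIS and PBX bind DNA together with HOX proteins. DLX, MSX and PRRX factors work in limb and craniofacial mesenchyme and in bone, PITX1 marks the hindlimb, SIX2 and its relatives act in kidney, muscle and eye, and LHX factors act in the limb bud and nervous system.

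The probes themselves show which stretch of a gene was read. The search was for 18 bases that encode glutamine, asparagine, any residue, arginine, any residue and lysine, in any frame and on both strands. This is part of the third helix of the homeodomain, the helix that lies in the major groove of DNA. It was present in 8 of 53 member probes (15.1%) and in 49 of all 43603 probes (0.112%), never on the reverse strand of a member. Examples from 3 HOX clusters and from DLX1 are shown with the 18 bases in capitals, because they show how alike these genes are where the array reads them. Coordinates are those of the array design (canFam2), with the strand of the gene.
HOXA5 (chr14:43271405-43271464, minus strand): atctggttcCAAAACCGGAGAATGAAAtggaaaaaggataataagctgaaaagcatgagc
HOXA6 (chr14:43275251-43275310, minus strand): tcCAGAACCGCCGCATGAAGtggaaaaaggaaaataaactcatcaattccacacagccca
HOXA9 (chr14:43293504-43293563, minus strand): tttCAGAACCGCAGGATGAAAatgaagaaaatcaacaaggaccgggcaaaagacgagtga
HOXA13 (chr14:43328783-43328842, minus strand): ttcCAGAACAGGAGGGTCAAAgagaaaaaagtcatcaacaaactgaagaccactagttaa
HOXB13 (chr9:28285980-28286039, minus strand): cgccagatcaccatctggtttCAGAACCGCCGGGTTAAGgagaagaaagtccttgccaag
HOXD9 (chr36:22959052-22959111, plus strand): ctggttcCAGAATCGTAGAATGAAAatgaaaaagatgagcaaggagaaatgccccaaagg
DLX1 (chr36:19507948-19508007, plus strand): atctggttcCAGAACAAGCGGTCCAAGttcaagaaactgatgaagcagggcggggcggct

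Some probes shared long runs of bases with a probe for another gene, so their signals may not be fully separate. A run of 21 bases, in capitals in the next pair, was common to 1 of the HOXA4 probes and the HOXC5 probe. Another run of 21 bases joined HOXC5 to BARX1. HOXB8 shared 20 bases with a probe described as homeobox D12 and DLX1 shared 20 with a probe described as engrailed homeobox 1. Cross-hybridization was not tested.
HOXA4 (chr14:43258631-43258690, minus strand): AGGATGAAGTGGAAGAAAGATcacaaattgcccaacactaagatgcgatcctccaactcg
HOXC5 (chr27:4231278-4231337, minus strand): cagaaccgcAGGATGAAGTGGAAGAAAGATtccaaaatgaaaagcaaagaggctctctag

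Both probes that carry the symbol HOXB5 are shown because they behaved differently and 1 of them may read a neighbouring gene. The probe with the higher coordinates is described on the array as homeobox B6, and it was the only 1 of 20 HOX probes with such a description to differ from its symbol. It lies 3369 bases from the end of the other probe, between that probe and HOXB7, and RefSeq places HOXB6 between HOXB5 and HOXB7. It is called HOXB5/HOXB6 below. The other probe spans a gap, covering 817 genomic bases with 60 bases of sequence.
HOXB5/HOXB6 (chr9:28185947-28186006, minus strand): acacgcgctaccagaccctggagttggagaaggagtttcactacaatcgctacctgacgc
HOXB5 (chr9:28181762-28182578, minus strand): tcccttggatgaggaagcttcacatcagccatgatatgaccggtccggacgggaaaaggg

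Across the series, 30280 to 34538 probes per array were well above background, the scanner software's call for a spot clearly brighter than its surroundings, and no spot was saturated. Levels are log2 intensities after background correction and quantile normalization, and replicate spots of a probe differed with an SD of 0.07 to 0.11 within an array. Where a level is given for every tumour, the deleted tumours stand in the order 1 to 4 and the wild-type tumours in the order 1 to 3. Wild-type tumours 1 and 2, labelled as different dogs, were closer to each other than any other pair (r = 0.987 over all probes, against 0.936 to 0.966 for the other 20 pairs), also over the members, where their median absolute difference was 0.11 against 0.15 to 0.42 for the other pairs. Some differences are therefore also given with these arrays averaged as 1 tumour. This covers the 10 member genes of smallest unadjusted p, DLX6, EED, GLI1, SHOX and the medians over the families. A single slide held wild-type tumour 2 with deleted tumours 2 and 3, and the other arrays were alone on their slides. The DLG2 probe read 10.38, 11.44, 10.51 and 10.84 in the deleted and 10.91, 12.03 and 11.75 in the wild-type tumours. The groups overlapped (difference -0.77, SE 0.35, limma adjusted p = 0.711). All 4 osteoblast markers with a probe (RUNX2, ALPL, COL1A1 and BGLAP) were well above background on all 7 arrays.

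Most homeobox genes were detected in every tumour. Of the 53 member probes, 35 (66.0%) were well above background on all 7 arrays, 12 on 1 to 6 arrays and 6 (11.3%) on none, against 62.9% on all and 16.8% on none among all probes. By this call, 39, 40, 43 and 39 members were above background in the deleted and 44, 42 and 46 in the wild-type tumours. The share of all probes above background was 70.1%, 69.8%, 71.9% and 69.4% in the deleted tumours and 72.7%, 72.1% and 79.2% in the wild-type tumours, and wild-type tumour 3 was highest for both. Other calls gave other orders. A signal positive and significant by the scanner software was found for 47, 47, 50 and 48 members in the deleted and 49, 49 and 48 in the wild-type tumours, and 32, 37, 47 and 38 against 40, 35 and 47 members were brighter than every negative control. Of the 21 HOX genes, 15 were above background on all 7 arrays, 5 on some and 1 (HOXC4) on none. Of the 25 other genes, 15 were above on all arrays, 6 on some and 4 (LHX1, LHX3, LHX5 and LHX6) on none.

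Detection was also set beside the design of the probes. Of the 7 members that cover more than 60 genomic bases, 1 was above background on all arrays, 2 on some and 4 on none (a HOXB5 probe, LHX3, LHX5 and LHX6). Of the other 46, 34 were above on all, 10 on some and 2 on none. Over the whole array, 59.8% of 7054 such gap-spanning probes and 65.9% of 34077 others with coordinates were above background on all 7 arrays. The median GC content was 53.3% for the members above background on all arrays and 45.0% for the rest. The part of probe design in these absences was not tested.

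**Figure D1:**
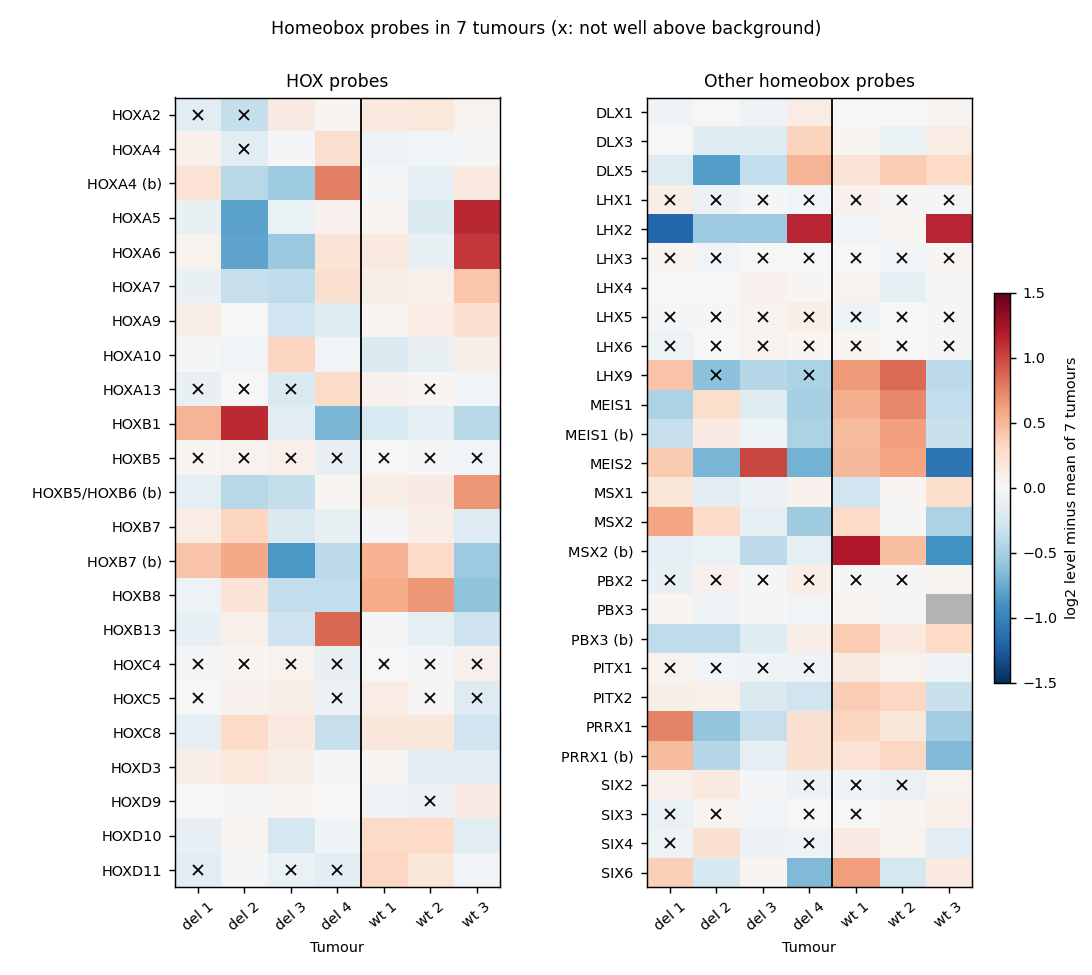
Level of each member probe (rows) in each tumour (columns; del, DLG2 deleted; wt, DLG2 wild type; the black line parts the groups) as log2 level minus that probe's mean over the 7 tumours, with colours ending at -1.5 and 1.5. A cross marks a probe not well above background on that array, a grey cell a value left out as an outlier, and (b) the second probe of a gene; of the 50 rows drawn 32 have no cross and 6 have a cross in every tumour.

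The HOX genes detected ran from the 3' to the 5' end of the clusters in every tumour. From paralog groups 1 to 4 (6 genes measured), 4, 4, 5 and 5 genes were above background in the deleted and 5 in each wild-type tumour. From groups 5 to 8 (8 genes), 7 or 8 were above background in every tumour. From groups 9 to 13 (7 genes), 5, 6, 5 and 6 were above background in the deleted tumours and 7, 5 and 7 in the wild-type tumours. Anterior, middle and posterior genes were all detected in every tumour, and the tumours differed by no more than 2 genes in any of these bands.

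The A cluster on chromosome 14 (9 genes, probes from 43223936 to 43328842) had 7, 7, 8 and 9 genes above background in the deleted and 9, 8 and 9 in the wild-type tumours. HOXA4, HOXA5, HOXA6, HOXA7, HOXA9 and HOXA10 were detected in all 7. HOXA2, a factor of the hindbrain and second pharyngeal arch, read 6.60, 6.40, 6.89 and 6.79 in the deleted and 6.91, 6.92 and 6.82 in the wild-type tumours, and was not above background in deleted tumours 1 and 2. HOXA13, which patterns the digits and the urogenital tract, read 6.47, 6.58, 6.37 and 6.87 in the deleted and 6.65, 6.62 and 6.54 in the wild-type tumours. It was above background in deleted tumour 4 and wild-type tumours 1 and 3, and highest in deleted tumour 4, with the groups overlapping. Of the 2 HOXA4 probes, 1 was above background everywhere and the one with the run shared with HOXC5 was above in all but deleted tumour 2 (6.73, 6.48, 6.63 and 6.89 in the deleted and 6.58, 6.61 and 6.63 in the wild-type tumours).

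In the B cluster on chromosome 9, each of the 5 symbols with a member probe (probes from 28120618 to 28286039) was detected in every tumour: HOXB1, HOXB5, HOXB7, HOXB8 and HOXB13. HOXB5 counted only through the HOXB5/HOXB6 probe, and its other probe was above background on 0 arrays. The C cluster on chromosome 27 (3 genes, probes from 4213090 to 4254512) had 1 or 2 genes above background per tumour. HOXC8 was detected in all 7, HOXC4 in none, and HOXC5 in deleted tumours 2 and 3 and wild-type tumour 1. HOXC5 read 6.53, 6.60, 6.62 and 6.44 in the deleted and 6.65, 6.55 and 6.34 in the wild-type tumours, a range of 0.30 in all. The D cluster on chromosome 36 (4 genes, probes from 22943696 to 23004408) had 3, 4, 3 and 3 genes above background in the deleted and 4, 3 and 4 in the wild-type tumours. HOXD3 and HOXD10 were detected in all 7. HOXD9 read 6.68, 6.65, 6.70 and 6.68 in the deleted and 6.62, 6.59 and 6.80 in the wild-type tumours and missed the background call in wild-type tumour 2 alone.

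HOXD11, which acts in the forearm skeleton, was detected unevenly between the groups. It was above background in 1 of 4 deleted and 3 of 3 wild-type tumours. Its level was 6.47, 6.62, 6.55 and 6.49 in the deleted and 6.96, 6.83 and 6.60 in the wild-type tumours. The groups overlapped, since deleted tumour 2 was above wild-type tumour 3.

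The range of a probe over the 7 tumours shows how far the tumours differed. The median range over the 7 tumours was 0.54 for the 22 HOX probes kept for testing and 1.01 for the 24 other member probes kept, against 0.73 for all 32309 kept probes (kept probes were well above background on at least 3 arrays), and these medians were not tested against each other. With the background offset of 50 intensity units, which draws dim probes together, no HOX probe had a range above 2, a 4-fold difference between the highest and lowest tumour. Of all kept probes 6.51% did, and 8 HOX probes had a range above 1. On the scanner's processed signal, which has no such offset, the median ranges were 1.81 for HOX and 1.84 for the other families, against 1.39 for all kept probes. A range above 2 was then found for 9 of 22 HOX probes, beside 8455 of all 32309 kept probes. HOXB8 then spanned 4.82, HOXA2 4.17, HOXA13 3.74, HOXA5 3.27, HOXC5 3.11, HOXD11 2.97, HOXB13 2.58, HOXA6 2.41 and the dimmer HOXA4 probe 2.28. For HOXA2, HOXA13, HOXC5, HOXD11 and that HOXA4 probe, the lowest value came from a tumour where the probe was not above background. HOXA2, for example, read 0.59 in deleted tumour 2, so these ranges rest partly on signal that was not detected. With the offset, the median SD over tumours was 0.20 for HOXA genes, 0.49 for HOXB and 0.15 for HOXD.

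The 8 HOX genes with a range above 1 under the offset lay in the A and B clusters. On the processed signal all 6 kept HOXC and HOXD probes also ranged over more than 1, as did 23932 of all 32309 kept probes. HOXA5, a factor of lung and trunk patterning, read 7.84, 7.15, 7.85 and 8.02 in the deleted and 7.98, 7.75 and 9.09 in the wild-type tumours. Its neighbour HOXA6 read 9.37, 8.52, 8.76 and 9.52 in the deleted and 9.46, 9.20 and 10.38 in the wild-type tumours. Both were highest in wild-type tumour 3 and lowest in deleted tumour 2, and the groups overlapped. HOXB1, a hindbrain factor, read 11.21, 11.82, 10.54 and 10.02 in the deleted and 10.48, 10.57 and 10.29 in the wild-type tumours, so that deleted tumours 2 and 1 were above all others and deleted tumour 4 was the lowest. HOXB8 read 7.00, 7.28, 6.71 and 6.71 in the deleted and 7.64, 7.73 and 6.48 in the wild-type tumours, with wild-type tumours 1 and 2 high and wild-type tumour 3 the lowest of all. HOXB13, a gene of the tail region and prostate, read 7.11, 7.31, 6.92 and 8.09 in the deleted and 7.20, 7.09 and 6.92 in the wild-type tumours. Deleted tumour 4 was the highest for HOXB13, as it was for HOXA13 and for the brighter HOXA4 probe (8.90, 8.27, 8.15 and 9.44 in the deleted and 8.66, 8.55 and 8.83 in the wild-type tumours). HOXB7, at its brighter probe, read 10.73, 10.87, 9.45 and 9.91 in the deleted and 10.83, 10.60 and 9.76 in the wild-type tumours. Deleted tumours 3 and 4 and wild-type tumour 3 were low for HOXB7, with HOXB5/HOXB6 described further on.

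**Figure D2:**
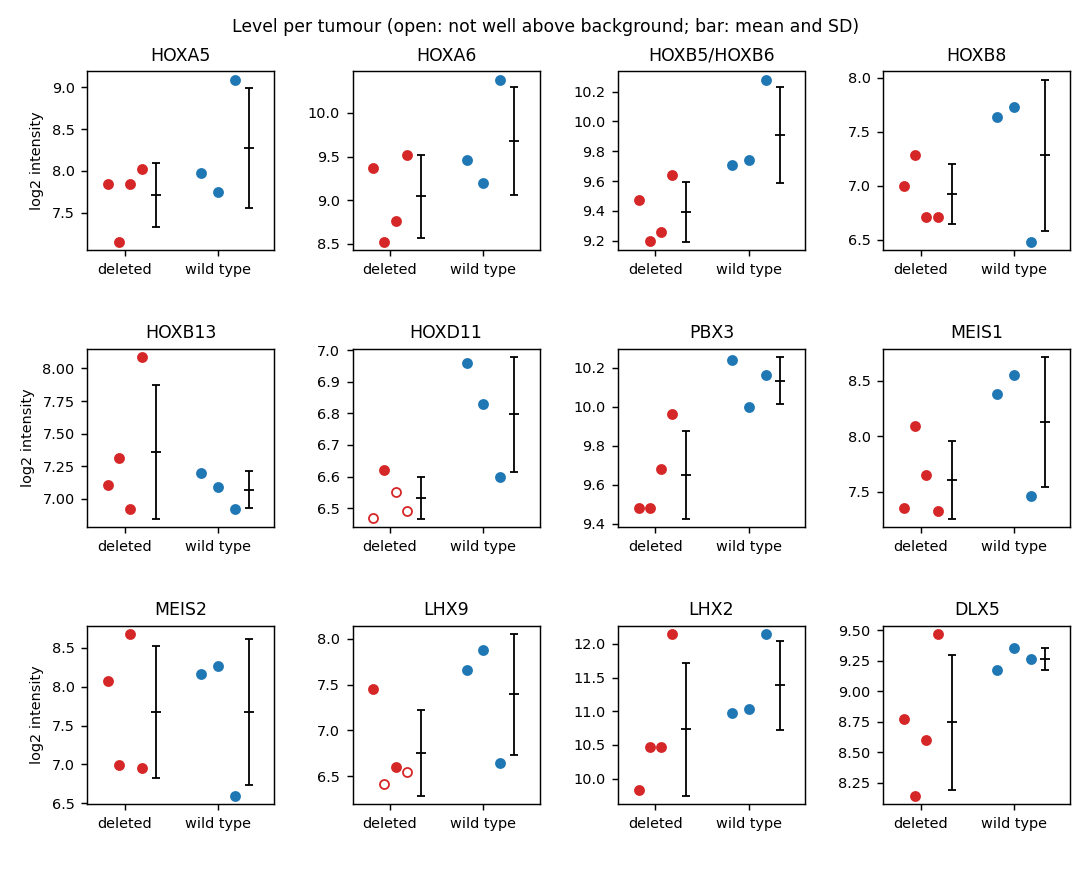
Log2 level (vertical axes) of single members in each DLG2 deleted and DLG2 wild type tumour (1 point per tumour, open where not well above background, with the group mean and SD as bars). Deleted and wild-type tumours did not overlap for PBX3 and HOXB5/HOXB6, whose deleted tumours lie at or below 9.96 and 9.64.

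Among the TALE partners of HOX proteins, MEIS1, MEIS2 and PBX3 were detected in all 7 tumours, and PBX2 in wild-type tumour 3 alone. MEIS2 had one of the widest ranges of any member, 2.08, at 8.07, 6.99, 8.68 and 6.96 in the deleted and 8.16, 8.27 and 6.59 in the wild-type tumours. Deleted tumours 2 and 4 and wild-type tumour 3 were low and the other 4 high, so each group held both kinds and their difference was 0.00 (SE 0.58). MEIS1 read 7.36, 8.09, 7.65 and 7.33 in the deleted and 8.38, 8.55 and 7.46 in the wild-type tumours at its brighter probe, with wild-type tumours 1 and 2 highest. The second MEIS1 probe had the same 2 tumours highest (8.15 and 8.29, against 7.19 to 7.79 in the others).

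Of the genes of limb and bone mesenchyme, PRRX1 was above background in every tumour with a range of 1.15 at its brighter probe, at 13.69, 12.79, 13.08 and 13.44 in the deleted and 13.43, 13.52 and 12.55 in the wild-type tumours. DLX5, which acts early in the osteoblast lineage, read 8.77, 8.14, 8.60 and 9.47 in the deleted and 9.17, 9.35 and 9.26 in the wild-type tumours. Deleted tumour 4 was the highest of all 7 while the other 3 deleted tumours were below every wild-type tumour. MSX1 varied little, at 7.58, 7.23, 7.31 and 7.46 in the deleted and 7.10, 7.42 and 7.66 in the wild-type tumours. The probes of MSX2, a target of bone morphogenetic protein signalling, gave different orders. The first read 9.04, 8.74, 8.31 and 7.92 in the deleted and 8.74, 8.43 and 7.97 in the wild-type tumours, and the second 8.15, 8.17, 7.88 and 8.14 in the deleted and 9.47, 8.72 and 7.36 in the wild-type tumours. Their group differences had opposite signs (0.13, SE 0.31, and -0.43, SE 0.45), each smaller than its error.

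PITX1, the hindlimb factor, was close to background throughout. Its probe was above background in 0 of 4 deleted and 3 of 3 wild-type tumours. The levels nevertheless overlapped, at 6.63, 6.53, 6.51 and 6.50 in the deleted and 6.71, 6.63 and 6.51 in the wild-type tumours. The groups differed by -0.08, less than the SE of 0.09 (limma adjusted p = 0.916), and the deleted tumours give only an upper bound for the level. The probe was kept for testing only through the 3 wild-type tumours.

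Of the SIX2 family, SIX6 was detected in all 7, SIX4 in 5, SIX2 in 4 and SIX3 in 3 tumours. LHX2, a factor of the distal limb bud and of hair follicle stem cells, had the widest range of any kept member, 2.32. It read 9.83, 10.47, 10.47 and 12.15 in the deleted and 10.97, 11.04 and 12.15 in the wild-type tumours, so that deleted tumour 4 and wild-type tumour 3 were the highest. LHX9, also a limb bud factor, read 7.45, 6.41, 6.60 and 6.55 in the deleted and 7.66, 7.88 and 6.64 in the wild-type tumours and was not above background in deleted tumours 2 and 4. Deleted tumour 1 was closer to wild-type tumours 1 and 2 than to the other deleted tumours. On the processed signal the range of LHX9 was 5.46 instead of 1.47 and that of MEIS2 4.91 instead of 2.08. The lowest LHX9 value there was 1.63 in deleted tumour 2, where it was not above background.

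Several homeobox genes have a probe that the symbol rule missed, named instead through RefSeq or the array's description. They did not enter the counts by cluster and paralog group. HOXB2 and HOXD8 were above background on all 7 arrays, HOXC6 on 5 and HOXC12 on 0. HOXC11 was above background in deleted tumours 1 and 2 and wild-type tumours 1 and 2. HOXD12 had the uneven detection of HOXD11, in 1 of 4 deleted and 3 of 3 wild-type tumours. Its levels differed by only -0.01 (SE 0.12). PRRX2 read 12.71, 12.69, 12.52 and 13.28 in the deleted and 13.58, 13.62 and 10.93 in the wild-type tumours at its brighter probe, so wild-type tumour 3 was the lowest, as it was for the brighter PRRX1 probe. DLX6, the neighbour of DLX5, read 7.46, 6.82, 6.62 and 7.44 in the deleted and 7.68, 7.49 and 7.85 in the wild-type tumours. These groups did not overlap, but the difference of -0.59 (SE 0.24) had an adjusted p of 0.68 in limma. The DLX6 difference was -0.64 with wild-type tumours 1 and 2 averaged.

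TBX4 and TBX5, T-box factors of the hindlimb and forelimb, were read with the homeobox genes because they bear on limb identity. TBX4 was above background in deleted tumour 4 alone, at 6.37, 6.33, 6.55 and 7.54 in the deleted and 6.54, 6.52 and 6.38 in the wild-type tumours. Of the TBX5 probes, 1 was above background nowhere and the other was above in all but deleted tumours 1 and 2 (6.52, 6.53, 6.84 and 6.64 in the deleted and 6.61, 6.65 and 6.64 in the wild-type tumours). Both TBX5 probes span gaps in the genome. SHOX2, a homeobox gene of the proximal limb, was also highest in deleted tumour 4, at 6.77, 6.76, 6.63 and 8.15 in the deleted and 6.93, 6.91 and 7.35 in the wild-type tumours.

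**Figure D3:**
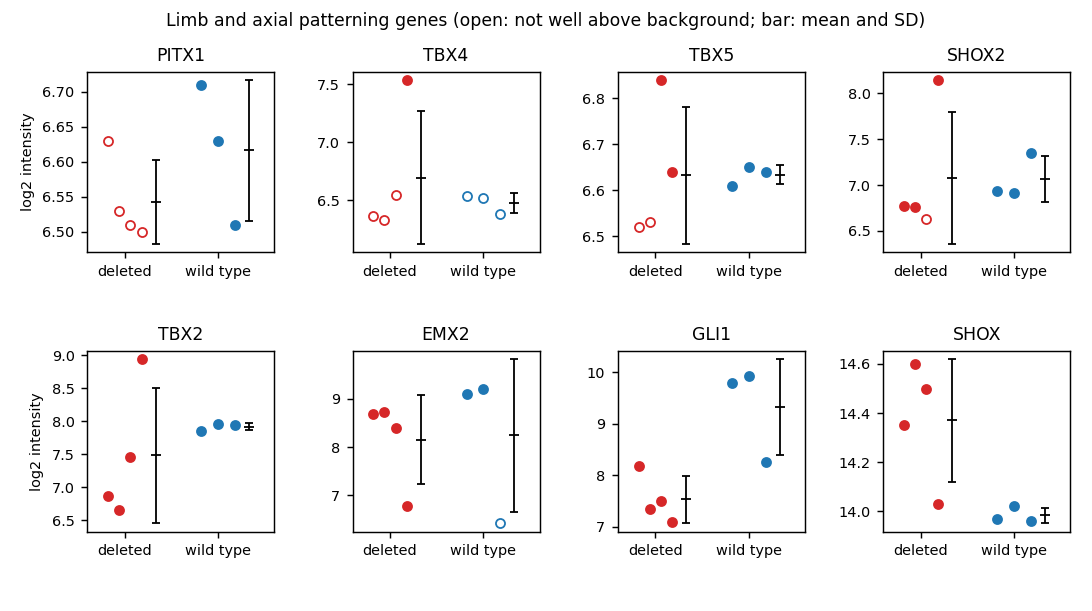
Log2 level (vertical axes) of limb and positional genes in each DLG2 deleted and DLG2 wild type tumour (1 point per tumour, with the group mean and SD as bars; open points are not well above background). TBX4 was above background in deleted tumour 4 alone, where it read 7.54, and PITX1 in the 3 wild-type tumours alone, with overlapping levels.

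The comparison of deleted with wild-type tumours asked whether homeobox levels went with DLG2 status. Over all 32309 kept probes, none (0%) passed the call of unadjusted p under 0.05 and adjusted p under 0.1 in limma, while 2355 (7.29%) had an unadjusted p under 0.05. Of the 46 kept member probes 0 were called and 2 (4.35%) had an unadjusted p under 0.05, beside 7.29% of all kept probes. Both were lower in the deleted tumours, as were 4.17% of all kept probes at that threshold. The same 2 probes, PBX3 and HOXB5/HOXB6, were the only members whose groups did not overlap (4.35%, against 8.14% of all kept probes, and 4.22% with the deleted tumours lower). The smallest adjusted p of any member was 0.569.

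PBX3, a HOX partner, read 9.48, 9.48, 9.68 and 9.96 in the deleted and 10.24, 10.00 and 10.16 in the wild-type tumours. Every deleted tumour was below every wild-type tumour, narrowly so for deleted tumour 4. The difference was -0.48 (SE 0.15, limma p = 0.0136, adjusted p = 0.569; exact permutation test, two-sided, p = 0.0571, where 35 splits allow 0.0286). It was -0.49 with wild-type tumours 1 and 2 averaged, and -0.42 within the shared slide. The second PBX3 probe differed by -0.05 between the groups, with wild-type tumour 3 left out there as an outlier spot.

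HOXB5/HOXB6 read 9.47, 9.20, 9.26 and 9.64 in the deleted and 9.71, 9.74 and 10.28 in the wild-type tumours, again without overlap. The difference was -0.52 (SE 0.18, limma p = 0.0263, adjusted p = 0.634; exact permutation test, two-sided, p = 0.0571), -0.61 with wild-type tumours 1 and 2 averaged and -0.51 within the shared slide. Wild-type tumour 3 carried much of it, and without that tumour the difference was -0.33. The neighbours HOXA7 (-0.35, SE 0.18, adjusted p = 0.76) and HOXA6 (-0.64, SE 0.36, adjusted p = 0.779) of the A cluster also had their highest level in wild-type tumour 3, and their groups overlapped. HOXA7 read 7.47, 7.23, 7.20 and 7.82 in the deleted and 7.67, 7.66 and 8.00 in the wild-type tumours. With wild-type tumours 1 and 2 averaged, HOXA7 differed by -0.4 and HOXA6 by -0.81.

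The rest of the 10 member genes with the smallest unadjusted p were HOXD11, HOXA9, HOXD3, DLX5, LHX9 and MEIS1, with adjusted p from 0.687 to 0.794. HOXD11 differed by -0.26 (SE 0.11) and HOXA9 by -0.23 (SE 0.12), but with array scaling to the 75th percentile in place of quantile normalization these became 0.54 and 0.30, on a scale where the median of all genes was 0.23. On the processed signal they were larger in the first direction, at -1.69 for HOXD11 and -0.76 for HOXA9 with quantile normalization and -1.92 and -0.91 with 75th percentile scaling, with limma adjusted p from 0.56 to 0.737. HOXA9, a posterior gene also known from leukaemia, read 7.09, 6.98, 6.69 and 6.81 in the deleted and 7.03, 7.10 and 7.22 in the wild-type tumours. HOXD3 was the only one of the 10 that was higher in the deleted tumours, by 0.18 (SE 0.10), at 7.06, 7.12, 7.05 and 6.93 against 6.99, 6.79 and 6.81. DLX5 differed by -0.51 (SE 0.29), MEIS1 by -0.52 (SE 0.31) and LHX9 by -0.64 (SE 0.37). With wild-type tumours 1 and 2 averaged, MEIS1 differed by only -0.35, LHX9 by -0.45 and HOXD11 by -0.21. HOXA9 then differed by -0.25, HOXD3 by 0.19 and DLX5 by -0.51. The arrays were also split at noon by the time in their headers at which the scanner software extracted the spot values. LHX9 differed by -1.36 among the earlier arrays (deleted tumours 2, 3 and 4 and wild-type tumour 2). Among the later arrays (deleted tumour 1 and wild-type tumours 1 and 3) LHX9 differed by 0.31, so its sign was not the same in both. Each of these values rests on a single tumour on 1 side.

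**Figure D4:**
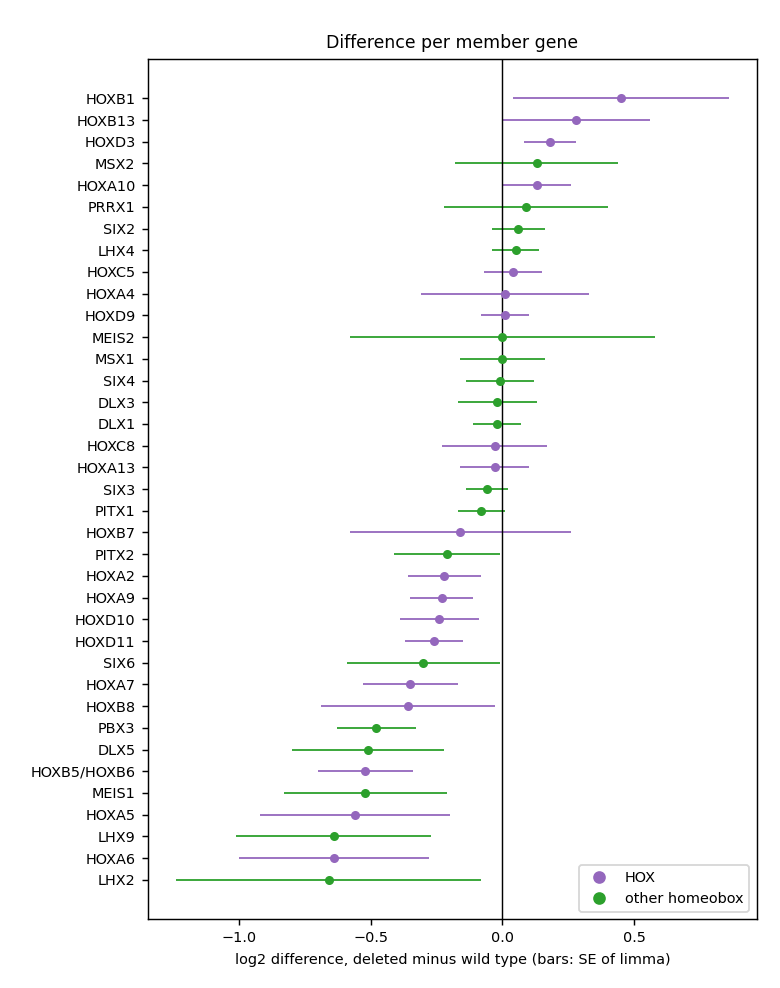
Log2 difference, DLG2 deleted minus DLG2 wild type, for 37 kept member genes (points; horizontal axis in log2 units, bars the SE from limma, vertical line at 0). Counting also the kept genes not drawn, 12 of 20 HOX genes and 13 of 20 others lie below 0, whereas with 75th percentile scaling after normexp 6 and 7 do; no gene passed the adjusted threshold.

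The sign of the median difference over a family depended on the scaling. The median difference was -0.09 over 20 HOX genes (8 higher, 12 lower) and -0.03 over 20 other homeobox genes (7 higher, 13 lower), against 0.01 over all 11612 genes, while with 75th percentile scaling after normexp it was 0.28 for HOX and 0.32 for the others against 0.23 for all genes. Relative to all genes, the HOX median was -0.11 in the first case and 0.05 in the second. By cluster it was -0.22 for HOXA, -0.16 for HOXB and -0.12 for HOXD under quantile normalization. The class medians per tumour had a pooled SD of 0.08 for HOX and 0.07 for the other families within the groups. On the processed signal with 75th percentile scaling the HOX median was -0.42, against -0.02 over all genes. With wild-type tumours 1 and 2 averaged the HOX median was -0.03 and that of the other families -0.05.

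Genes that control HOX expression or act beside it in patterning were counted as lists. Of 31 HOX regulators (Polycomb and trithorax genes, retinoid and CDX factors among them), 25 were kept and 0 called. EED, a Polycomb subunit that keeps HOX genes silent, was the only one with an unadjusted p under 0.05. Its probe starts at 16258090 on chromosome 21, where the DLG2 probe starts at 18338004. Copy number at EED was not tested. It read 9.82, 10.37, 10.19 and 9.58 in the deleted and 8.32, 9.12 and 9.60 in the wild-type tumours (difference 0.97, SE 0.33, adjusted p = 0.615), and the groups overlapped narrowly. The median over the list was -0.03. Of 9 further TALE genes and partners (PKNOX, TGIF and IRX genes and PBXIP1) 5 were kept and 0 called, with a median of 0.09.

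Of 34 limb and axial patterning genes 24 were kept, 0 were called, and the median was -0.03. The unadjusted p was under 0.05 for SHOX and GLI1. GLI1, a target and effector of hedgehog signalling, read 8.18, 7.34, 7.51 and 7.10 in the deleted and 9.78, 9.93 and 8.26 in the wild-type tumours, without overlap but with deleted tumour 1 close to wild-type tumour 3. The difference was -1.79 (SE 0.46, adjusted p = 0.503), and -1.52 with wild-type tumours 1 and 2 averaged. SHOX, a homeobox gene of limb bone growth outside the families chosen, read 14.35, 14.60, 14.50 and 14.03 in the deleted and 13.97, 14.02 and 13.96 in the wild-type tumours (difference 0.39, SE 0.15, adjusted p = 0.66), with no overlap but deleted tumour 4 next to wild-type tumour 2. With wild-type tumours 1 and 2 averaged the SHOX difference was again 0.39, but its unadjusted limma p was 0.0779.

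Markers of other cell types moved with some of the same tumours. In bulk tumour RNA, fewer cells of a type and less RNA per cell cannot be told apart. Deleted tumour 4, highest for HOXA13, HOXB13, TBX4 and SHOX2 and level with wild-type tumour 3 for LHX2, had adipocyte markers (5 of 6 listed genes with a probe, 4 of them above background on all arrays) at a median 3.12 above their mean over the tumours, against -0.61 to -0.28 in the others. The log2 of their summed intensity, which weights bright genes most, ran from 9.69 to 13.91 in the deleted and from 9.72 to 9.85 in the wild-type tumours. ADIPOQ read 13.37 in deleted tumour 4 against 6.92 to 7.85 elsewhere. The probes of LEP disagreed. The brighter one, which entered the median, was lowest in deleted tumour 4 (7.96 against 8.00 to 8.26 elsewhere). The dimmer one read 9.79 there against 6.41 to 6.79 elsewhere.

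Wild-type tumour 3 was highest for HOXA5, HOXA6 and HOXB5/HOXB6 and lowest for PRRX2 and MEIS2. It had osteoclast markers (4 of 5, all above background on all arrays) at a median 2.64 above their mean, against -1.42 to 0.80 in the others. CALCR, 1 of the 4, read 7.16 there against 6.79 to 7.23 elsewhere. Its osteoblast median was also the highest, at 1.02, and RUNX2 and BGLAP were highest there. COL1A1 went the other way. At its brightest probe it read 15.22 in wild-type tumour 3, 14.08 in deleted tumour 2 and 15.58 to 15.95 in the others. The log2 summed osteoclast intensity was 13.34 to 16.07 in the deleted and 14.96 to 17.76 in the wild-type tumours. Deleted tumour 2 was highest for HOXB1 and lowest for HOXA5 and DLX5. Its osteoblast markers (4 of 8) stood at a median of -1.57 and its cartilage markers (4 of 5) at 1.91. Deleted tumour 3 had the same directions (-0.81 and 1.33), with HOXB1 at 10.54, HOXA5 at 7.85 and DLX5 at 8.60. The brightest COL2A1 probe was highest in deleted tumour 3 (15.13, against 13.08 in deleted tumour 2). The log2 summed osteoblast intensity was 14.57 to 17.33 in the deleted and 16.20 to 17.14 in the wild-type tumours. That of cartilage was 11.16 to 15.23 in the deleted and 10.46 to 11.06 in the wild-type tumours. Endothelial (5 of 6) and leukocyte markers (5 of 6) were highest in deleted tumour 3, at 1.29 and 0.68. The medians of skeletal muscle markers moved by -0.19 to 0.10 and those of neural markers by -0.11 to 0.07. Single muscle probes moved more. In deleted tumour 3 the brightest ACTA1 probe read 13.42, against 11.44 to 12.64 elsewhere. A dim MYH1 probe read 7.81 there, against 6.39 to 6.55 elsewhere, but the MYH1 probe in the median was flat (6.80 to 7.23). None of the other muscle probes in the median was highest in deleted tumour 3. The part of these cell types in the homeobox levels was not tested.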

How the data were processed

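RNA from 7 canine primary osteosarcomas (4 DLG2 deleted, 3 DLG2 wild type by the labels) was hybridized with 1 dye to Agilent canine arrays. The deposited files hold spot intensity values from Agilent Feature Extraction 10.7.3.1, per the file headers not yet normalized between arrays, with probe positions on canFam2. The authors' own normalization, a multi-array average with a batch correction whose batches are not given in the sources used here, was not rebuilt. Mean and background intensities were corrected with normexp (offset 50), control spots dropped, 144 outlier spots left out, arrays quantile normalized and log2 values averaged over replicate spots. Probes well above background on at least 3 arrays (32309 of 43603) were tested with limma 3.58.1 in R 4.3.3, with Benjamini-Hochberg adjustment over all of them, and called at unadjusted p under 0.05 with adjusted p under 0.1. A gene was represented by its kept probe of highest mean level. The exact test permutes group means over 35 splits (two-sided).

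Of 2706 probes with a locus name, 1842 received a symbol from RefSeq (assembly UU_Cfam_GSD_1.0), used for names and gene order only. Members, marker and pathway lists and the rule for named genes were chosen with earlier results of these data known. The rule names HOX genes detected in some tumours, members with a range above 2, named limb and cofactor genes, TBX4, TBX5 and the 10 member genes of smallest p. The 8 HOX genes with a range above 1, EED, SHOX, SHOX2 and GLI1 were added after their values were seen. In simulated data for this comparison over 32309 probes, a log2 change of 1 in 200 probes gave 104 recovered and 11 false calls. Alternatives were other background corrections, scalings, filters on dim probes and moderation. Terms for slide, feature extraction (the software's reading of the scan) before or after noon, sex label and age were also tried. Each tumour was left out in turn, and wild-type tumours 1 and 2 were averaged. The number of arrays limits the precision. A few members enter the counts and medians but are not reported here.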

Additional observations from a re-analysis of the deposited data

Results flagged for a closer look

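Among the homeobox and limb genes described, 3 of 48 groups of deleted tumours had 1 tumour far from the other 3, past Dixon's critical value, where chance would give 2.4. HOXA10 was high in deleted tumour 3, at 8.62 against 8.26 to 8.27 in the other deleted tumours (ratio of gap to range 0.966). SIX4 was high in deleted tumour 2, at 6.90 against 6.58 to 6.59 (0.955), and was above background in 2 of 4 deleted tumours. SHOX2 was high in deleted tumour 4, at 8.15 against 6.63 to 6.77 (0.903), the tumour that also had the adipocyte markers high. Why these tumours stood apart was not tested.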

How the results depend on the processing

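No homeobox probe and no gene of the pathway lists was called under any setting tried. Over all kept probes the calls were 0, also by the methods' test on each probe alone, but 4 with processed signal and quantile normalization, 10 with processed signal and 75th percentile scaling, 23 with normexp and 75th percentile scaling, 4 with trended and robust moderation, 1 with slide as a random block and 0 to 46 with a tumour left out (46 without wild-type tumour 3). The HOX median of -0.09 became -0.24 with processed signal and quantile normalization, -0.42 with processed signal and 75th percentile scaling, 0.28 with normexp and 75th percentile scaling, -0.24 with slide as a fixed block, and -0.16 to -0.01 with a tumour left out, the latter without wild-type tumour 1. The median of the other families (-0.03) became -0.24 with processed signal and 75th percentile scaling, 0.32 with normexp and 75th percentile scaling, and -0.17 to -0.03 with a tumour left out (-0.17 without wild-type tumour 3). None of the 10 member genes of smallest p was called in any setting. The direction was kept in 206 of 208 values, but not every setting could change it. The filters on dim probes, the moderation and the methods' test alter only p or the probes kept and leave the difference as it was. The 10 genes were also picked by p in these same data, so this count does not measure robustness. Sizes moved widely, from -2.32 to -0.18 for LHX9, -0.96 to -0.03 for MEIS1, -0.70 to -0.03 for HOXA7 and down to -1.92 for HOXD11. The reversals were HOXD11 (0.54) and HOXA9 (0.30) under normexp with 75th percentile scaling, where all genes shifted by 0.23. The cause was not tested. HOXD11 and LHX9 had no value when probes had to be above background on all 7 arrays. The adjusted p ran from 0.336 to 1 for PBX3 and from 0.443 to 1 for HOXB5/HOXB6. No paired analysis was possible because the replicate numbers follow sample order and pair no tumours. Dim probes such as HOXD11 and PITX1 lie near background, where differences are compressed.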
